A study of Mus musculus with 4 samples.

Results

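The genes described here encode the cytosolic translation initiation and elongation factors of mouse regulatory T cells and the proteins that bind or modify them. Members were chosen by name: autosomal protein-coding genes whose GENCODE M21 symbol begins with Eif1 to Eif6, Eef1 or Eef2, with the Eif2ak kinase genes left out. This gave 60 of the 50600 genes in the files, spread over 18 chromosomes. RNA was sequenced in 4 libraries, labelled biological replicates 1 to 4 of a single group: primary regulatory T cells, the Foxp3-dependent CD4+ cells that restrain immune responses, from C57BL/6NJ mice. No treatment or mutant was named, age was given as unknown and sex as not collected. The 4 libraries have separate biosample records but share 1 donor record. Xist and the Y-linked Eif2s3y, given below, separate replicates 1 and 2 from replicates 3 and 4 as in female and male cells, which goes against a single animal as the source of all 4. The p-values below are taken over these samples, in which differences between animals and technical ones cannot be told apart. The assay title speaks of total RNA sequencing, whereas the library protocol listed with it refers to poly(A)+ selection. The submitters also listed a protocol for differentiating CD4+ T cells, and sample names in the file headers include activated, sorted and 72 h, details absent from the labels.

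Translation of an mRNA begins when eIF4F (the cap-binding protein eIF4E, the scaffold eIF4G and the helicase eIF4A) brings the message to a small ribosomal subunit that carries eIF1, eIF1A, eIF3, eIF5 and the eIF2-bound initiator tRNA. During elongation, eEF1A delivers each aminoacyl-tRNA, eEF1B recharges eEF1A with GTP, and eEF2 moves the ribosome by a codon. In T cells, antigen receptor and growth factor signals through mTORC1 act on this machinery by phosphorylating the 4E-BP repressors of eIF4E, and many factor and ribosomal protein mRNAs begin with a run of pyrimidines that places their translation under the same control.

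The factor promoters were examined for CACGTG, the core site of MYC and related factors, because MYC is known to act on growth genes in activated T cells. RefSeq promoter windows on GRCm38.p6, which run from 250 bases before to 50 bases after the annotated start, were found for 44 of the 60 members. CACGTG, which is its own reverse complement, stood in a window of 12 of these 44 members (27.3%), against 9.22% of 15634 autosomal protein-coding genes; counted by window, the share was 24.1% of 58 member windows and 7.15% of 32851 windows in all. Stretches around the site are shown for the cap-binding protein, its scaffold and helicase, and for the 2 most abundant factors that hold it, with CACGTG in capitals and each read 5′ to 3′ on the strand of the gene.
Eif4e, chr3:138527187-138527226, plus strand: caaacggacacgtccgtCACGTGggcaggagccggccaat
Eif4g1, chr16:20672656-20672695, plus strand: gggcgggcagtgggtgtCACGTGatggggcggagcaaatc
Eif4a1, chr11:69672590-69672629, minus strand: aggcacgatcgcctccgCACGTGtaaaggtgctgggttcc
Eef2, chr10:81176571-81176610, plus strand: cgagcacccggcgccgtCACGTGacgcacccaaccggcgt
Eif5a, chr11:69921438-69921477, minus strand: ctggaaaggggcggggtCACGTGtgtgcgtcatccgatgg
Counted to its first base, the site lay 43 bases before the annotated start in Eef2, 54 before it in Eif4g1, 64 before it in Eif4e and 189 before it in Eif4a1. The other 7 members with a match were Eef2k, Eif1b, Eif3a, Eif3f, Eif3k, Eif4h and Eif5a2, and Eif4e, Eif4g1, Eif5a and Eif5a2 each held a further match. The background was not limited to expressed genes or to genes of like level. A match describes the letters of the window and is not a measure of binding.

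A pyrimidine start was searched for on the gene's strand as a C at the annotated start followed by at least 4 letters C or T. Only Eif3f, which encodes an MPN-domain subunit of eIF3, met this among the 44 members (2.27%), against 2.74% of all autosomal coding genes. Its start is shown with the run in capitals, since it is the one member whose RefSeq start falls at such a run.
Eif3f, chr7:108934400-108934429, plus strand: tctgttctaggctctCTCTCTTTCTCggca
Allowing the C to lie within 3 bases of the annotated start gave 7 members (15.9%), against 13.6% of all autosomal coding genes. Both shares lay near those of all genes, and annotated starts need not be the starts used in these cells.

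The libraries held 46044354, 72147632, 94983494 and 32648138 counts for replicates 1 to 4. The 8 markers of regulatory T cells and T cells were all expressed, the lowest being Ikzf2 at 12.97 TPM. Of 13 markers of CD8 T cells, B cells, myeloid cells and NK cells none was expressed, the highest being Cd79a at 0.747 TPM in the mean, and S100a8, S100a9 and Ncr1 had no counts. Replicate 1 stood apart in Gm42418, which overlaps ribosomal RNA repeats, with 11891 TPM against 1555 to 4335 TPM in the others. Xist was at 312 and 331 TPM in replicates 1 and 2, against 0.539 and 2.38 TPM in replicates 3 and 4. In bulk RNA, fewer cells of a type and less RNA per cell cannot be told apart.

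Translation factor mRNAs were among the most abundant in these cells. Of the 60 members, 56 reached 1 TPM (a transcript level corrected for exon length and for the library) in every library, against 50.1% of 20620 autosomal protein-coding genes. A mean of 100 TPM was reached by 38 members, against 9.04% of those genes, and 6 members passed 1000 TPM. Together the members took 3.62, 4.08, 4.06 and 4.04% of all TPM in replicates 1 to 4, a mean of 3.95 ± 0.224% (SD, n = 4). Replicate 1 was the lowest and the other 3 nearly equal. Eef1a1, the most abundant member, was also lowest there, at 11605 TPM against 14117 to 14969.9 TPM in the others. The low share does not describe most members: in counts without length correction, replicate 1 was lowest for 14 of 57 tested (background 30.1%). Ribosomal protein genes took 12.5% in the mean. The elongation factors Eef1a1 and Eef2 alone held 57.3 ± 1.68% of the members' TPM, and the median member stood at 154 TPM.

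**Figure D1:**
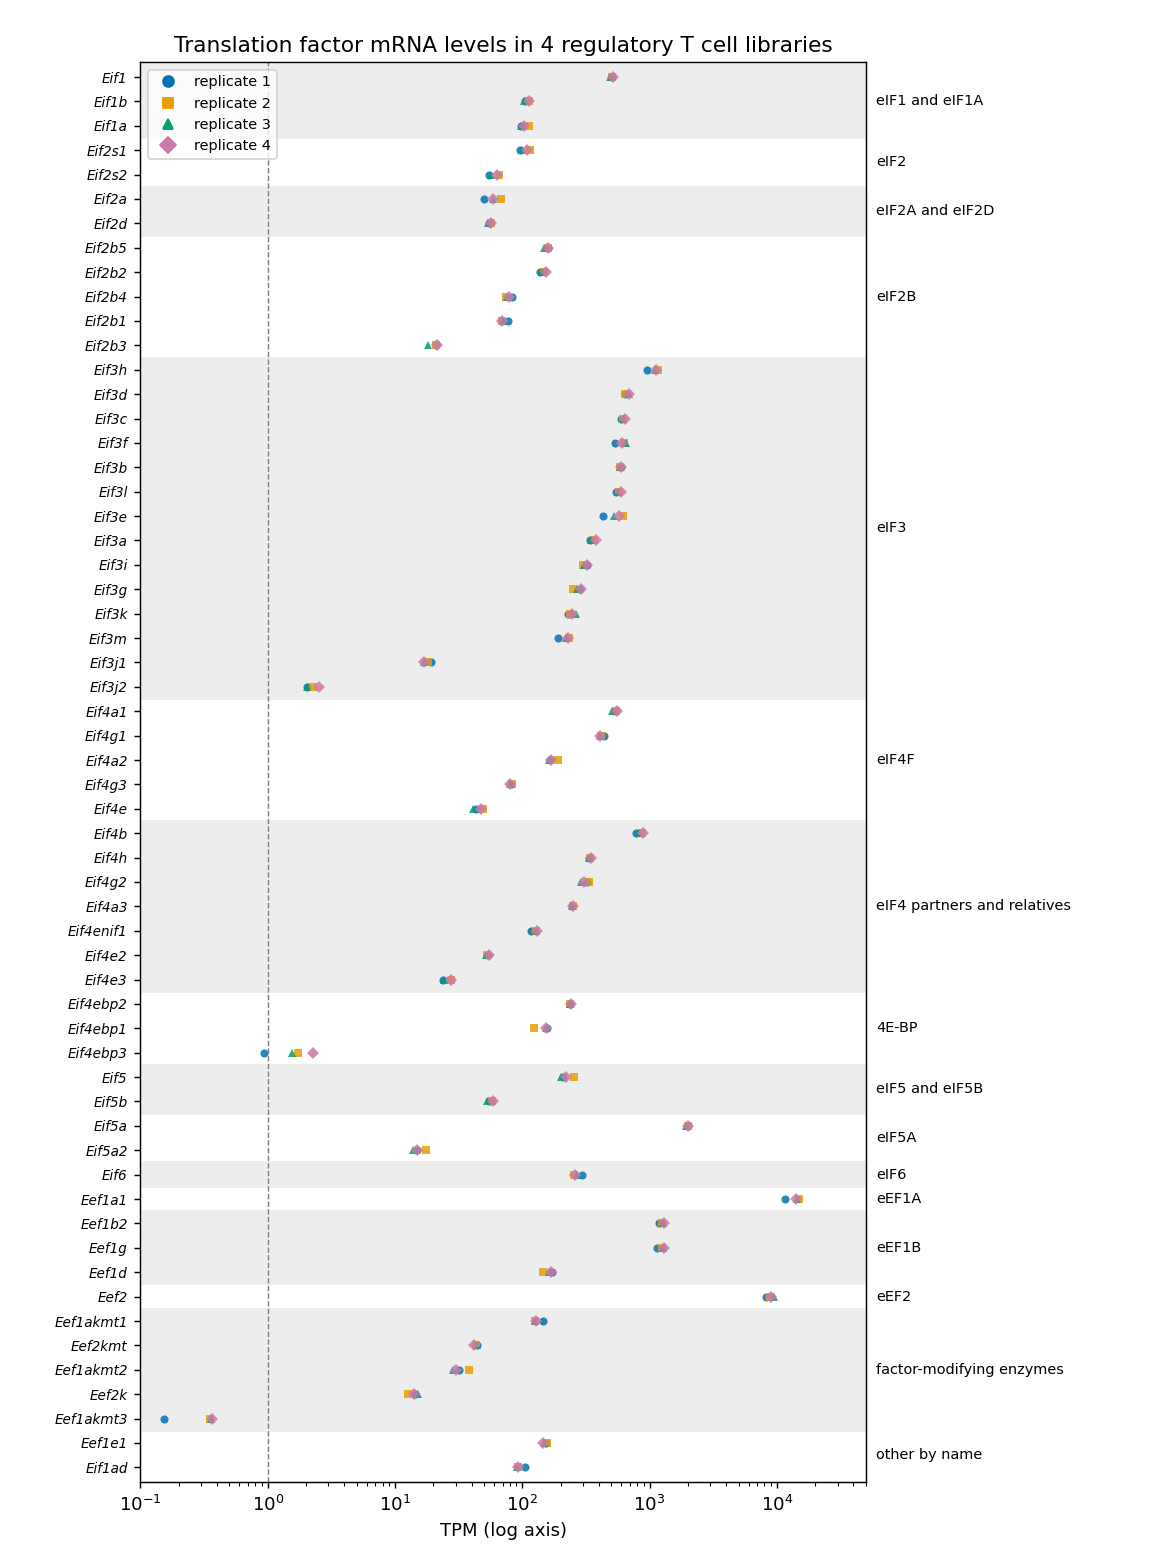
Level of 58 translation factor genes in TPM (log axis), grouped by complex, with 1 symbol for each of the 4 libraries; Eef1a2 and Eif4e1b, both under 0.1 TPM in the mean, are not drawn. The 4 libraries nearly coincide for most genes, while genes span from Eef1akmt3 at 0.308 TPM to Eef1a1 at 13790.5 TPM.

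Eef1a1, the elongation factor that delivers aminoacyl-tRNA (ENSMUSG00000037742.14, chr9:78478449-78489151, minus strand, mm10), was the most abundant nuclear protein-coding mRNA of the cells. It measured 11605, 14969.9, 14469 and 14117 TPM in replicates 1 to 4. Replicate 1 was the lowest and the other 3 lay close together. Its paralog Eef1a2, the form of adult muscle and neurons, had 1 count in all, in replicate 3. The difference of 13.74 ± 0.16 on log2(TPM + 1) (SD, n = 4) is set by the pseudocount, and it was 17.01 with a pseudocount of 0.1. From the summed counts per base of exon the ratio was 21.08 log2 units, with a 95% Poisson interval of 18.60 to 26.38 that covers counting error only. Eef1a2 lay under the limit of 3 counts that each library allows, 0.0488 TPM in the deepest and 0.143 TPM in the shallowest.

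Eef2, the translocase (ENSMUSG00000034994.10, chr10:81176631-81182498, plus strand, mm10), ranked 3 among nuclear protein-coding genes. It measured 8276, 8792, 9429.9 and 9038 TPM. No library stood apart, although replicate 1 was again lowest. Eef1a1 exceeded Eef2 by 1.55 ± 0.123-fold in TPM, and in each of the 4 libraries. The ratio was 2.00 with the length of the longest coding transcript and 1.16 in counts without length correction. Eef2k, the kinase that inactivates eEF2, had 14.4, 12.7, 15.3 and 14.1 TPM, highest in replicate 3 and lowest in replicate 2. Eef2 lay 9.20 ± 0.11 log2 units above its kinase. Eef2kmt, which methylates eEF2, averaged 43.3 ± 0.921 TPM.

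The eEF1B subunits, which exchange the nucleotide on eEF1A, stood at unequal levels. Eef1b2, a catalytic subunit, measured 1187, 1246, 1277 and 1303 TPM. Eef1g, the structural subunit, measured 1153, 1246, 1275 and 1307 TPM. These 2 mRNAs nearly coincided in each library as measured. However, 56.5% of the 75-base words of Eef1g also occurred in other genes, against 2.95% of those of Eef1b2. Multimapping reads were not counted, so the level of Eef1g and its likeness to Eef1b2 are uncertain. Eef1d, the other catalytic subunit, measured only 172, 144, 161 and 169.6 TPM, with replicate 2 lowest. Eef1b2 exceeded Eef1d by 2.95 ± 0.13 log2 units, or 2.28 with the length of the longest coding transcript, and Eef1g exceeded it by 2.94 ± 0.15. With 4 libraries the exact two-sided sign-flip permutation test gives p = 0.13 (rounded) whenever all differences share a sign, which is the smallest p it can give; all 16 gene pairs examined here reached it, with the same adjusted value, so none could pass 0.05.

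The methyltransferases of eEF1A covered a wide range. Eef1akmt1 was highest at 131 ± 9.78 TPM, Eef1akmt2 averaged 32.2 ± 4.13 TPM and Eef1akmt3 was barely detected. Eef1akmt2 measured 32.1, 37.98, 28.5 and 30.1 TPM, with replicate 2 the highest. Eef1akmt3 measured 0.152, 0.353, 0.361 and 0.366 TPM, where replicate 1 held less than the other 3. Eef1e1, which despite its name encodes a component of the multi-tRNA synthetase complex, averaged 151 ± 5.35 TPM. Eif1ad, a gene named for an eIF1A-like domain, averaged 95.2 ± 6.35 TPM.

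Within eIF4F, the mRNA of the cap-binding subunit was the least abundant. Eif4e measured 43.6, 48.8, 41.4 and 47.3 TPM, with replicate 3 lowest and replicate 2 highest. Eif4a1, the main helicase subunit, measured 534, 541, 504 and 552 TPM. Eif4g1, the main scaffold, measured 436, 418, 408 and 405 TPM. Both exceeded Eif4e several-fold in every library: by 11.8 ± 0.533-fold for Eif4a1 and 9.25 ± 0.791-fold for Eif4g1. With the length of the longest coding transcript the ratio for Eif4a1 was 23.9, and in counts without length correction it was 8.51.

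The paralogs of the eIF4F subunits were expressed at lower levels than the main forms, with exceptions among the cap-binding proteins. Eif4a2, the second helicase gene, measured 164, 189.5, 163 and 168 TPM. Eif4a3, a core protein of the exon junction complex rather than of eIF4F, measured 245, 251, 245 and 249.95 TPM. Eif4a1 lay above Eif4a2 by 1.63 ± 0.09 and above Eif4a3 by 1.10 ± 0.04 log2 units. With the longest coding transcript, Eif4a1 lay 1.90 above Eif4a3. Eif4g3, the second scaffold gene, measured 81.3, 83.7, 80.3 and 80.1 TPM, and Eif4g1 lay 2.34 ± 0.05 log2 units above it. Eif4a2 was highest in replicate 2, and the libraries lay close together for the other 3 genes.

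Eif4g2, also called DAP5, encodes a scaffold that lacks the eIF4E-binding part. It measured 320.04, 332, 287 and 306 TPM, highest in replicate 2 and lowest in replicate 3. Eif4g2 lay below Eif4g1 in TPM by -0.42 ± 0.07 log2 units (lower in 4 of 4 libraries), but the order turned round without the correction for length, at 0.07 in CPM (counts scaled to the library total alone).

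Among cap-binding relatives, Eif4e2 (4EHP, a translational repressor) measured 53.8, 53.01, 52.3 and 55.1 TPM, above Eif4e in every library. The difference of Eif4e minus Eif4e2 was -0.24 ± 0.09 log2 units with the exon lengths of the files and -1.07 with the longest coding transcript. Eif4e3 measured 24.03, 27.8, 24.1 and 27.3 TPM, and Eif4e lay 0.79 ± 0.03 above it. Eif4e1b, the oocyte form, had no counts in any library, which allows up to 0.0919, 0.0608, 0.0451 and 0.132 TPM in replicates 1 to 4; these limits cover counting error only. Eif4enif1, the eIF4E transporter that carries eIF4E into the nucleus and P-bodies, averaged 126 ± 5.51 TPM.

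The repressors of eIF4E outnumbered it at the mRNA level. Eif4ebp2 was the most abundant 4E-BP gene and the steadiest member, at 239, 239, 237 and 241 TPM and a coefficient of variation of 0.693%. Eif4ebp1 (ENSMUSG00000031490.6, chr8:27260329-27276674, plus strand, mm10) measured 157, 124, 154 and 153 TPM, with replicate 2 below the other 3. Eif4ebp3 averaged 1.62 ± 0.554 TPM and was the only 4E-BP gene under 1 TPM in a library. That was replicate 1, at 0.928 TPM from 10 counts. In its sequence, 64.2% of 75-base words also occurred in another gene, and multimapping reads were not counted, so its level is uncertain. The 3 genes summed to 9.09, 7.49, 9.48 and 8.37 times Eif4e, a mean of 8.61 ± 0.878 (SD, n = 4), with no library under 7. Eif4e minus Eif4ebp1 was -1.67 ± 0.24 log2 units, and Eif4ebp1 minus Eif4ebp2 was -0.70 ± 0.16, each negative in 4 of 4 libraries in TPM. Without length correction, in CPM, Eif4e minus Eif4ebp1 was -0.24, negative in 3 of 4 libraries and 0.10 in replicate 2, and Eif4ebp1 minus Eif4ebp2 was -2.09. mRNA levels do not give the phosphorylation that controls these proteins.

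The cofactors of the helicase were abundant. Eif4b, which stimulates eIF4A and is a target of ribosomal S6 kinase, measured 783, 865, 819 and 892 TPM. Its relative Eif4h averaged 338 ± 4.84 TPM. Eif4b exceeded Eif4h by 2.49 ± 0.110-fold with the exon lengths of the files, but by 1.22 ± 0.0538-fold when the length of the longest coding transcript was used instead.

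**Figure D2:**
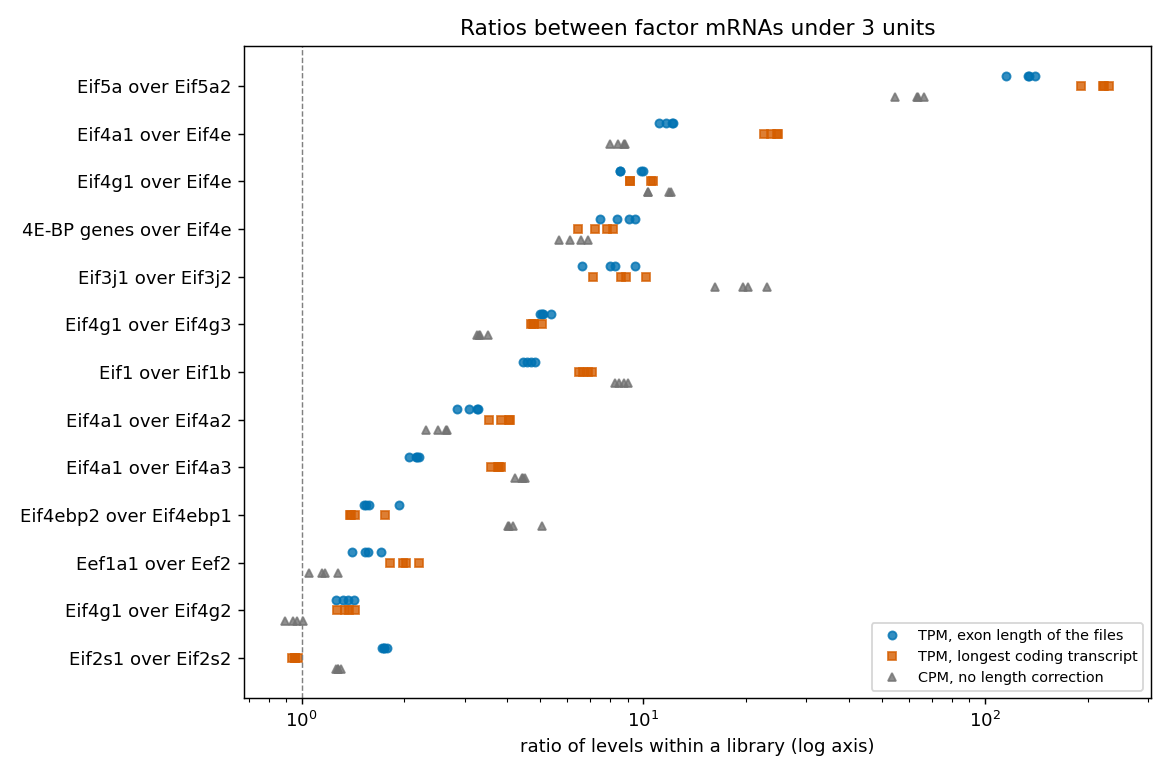
Ratio of the level of the first named gene over the second within each library (log axis), with 1 point per library, computed from TPM with exon length, from TPM with the longest coding transcript and from CPM. Most ratios stay on the same side of 1 (dashed line); Eif2s1 over Eif2s2 is 0.955 with the longest coding transcript and Eif4g1 over Eif4g2 is 0.955 in CPM, and these ratios and Eif4ebp2 over Eif4ebp1 run opposite to the log2 differences given in the text.

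The factors that select the start codon differed in level between paralogs. Eif1, which guards start codon choice, measured 509, 506, 490.05 and 517 TPM. Its paralog Eif1b measured 105, 114, 104 and 113 TPM, and Eif1 lay 2.20 ± 0.05 log2 units above it. Eif1a, the autosomal eIF1A gene, averaged 103 ± 7.12 TPM, and the X-linked copy Eif1ax, not a member, averaged 67.01 ± 3.77 TPM. Eif5, the GTPase-activating protein of eIF2, averaged 222 ± 22.4 TPM, and Eif5b, the GTPase that joins the large subunit, averaged 56.2 ± 2.53 TPM. Eif6, which keeps the large subunit from joining too early, averaged 269.6 ± 17.1 TPM.

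The alpha and beta subunits of eIF2, the carrier of initiator tRNA, are encoded by Eif2s1 and Eif2s2. Eif2s2 measured 55.1, 65.4, 56.3 and 63.9 TPM. Eif2s1 measured 96.02, 114, 100.2 and 109.6 TPM. Both were lowest in replicate 1 and highest in replicate 2. Eif2s2 minus Eif2s1 was -0.79 ± 0.02 log2 units, but it was 0.07 with the length of the longest coding transcript, so their order depends on the length used.

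The gamma subunit is encoded on the sex chromosomes and is thus outside the chosen genes. Eif2s3x measured 71.98, 82.3, 44.8 and 49.97 TPM, higher in replicates 1 and 2, and was called variable between libraries by the edgeR goodness-of-fit test (adjusted p = 1.79e-05). Eif2s3y measured 0.0830, 0.132, 49.3 and 67.7 TPM: it was nearly undetected in the libraries with high Xist and expressed in the other 2. Their sum was 72.1, 82.4, 94.1 and 118 TPM, or 0.871 ± 0.166 times Eif2s1. By library this ratio was 0.750, 0.722, 0.940 and 1.07 in replicates 1 to 4. With the length of the longest coding transcript it was 0.540, 0.520, 1.09 and 1.29. The copies are close paralogs, so reads that match both are missing from either value. Eif2a and Eif2d encode proteins that can bring initiator tRNA without eIF2. Eif2a measured 50.1, 68.2, 58.8 and 59.1 TPM, lowest in replicate 1 and highest in replicate 2. Eif2d averaged 55.5 ± 1.64 TPM.

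The 5 subunits of eIF2B, the exchange factor that recharges eIF2 and the target of the integrated stress response, were unequal. Eif2b5, the catalytic epsilon subunit, averaged 156 ± 5.77 TPM and Eif2b2 146 ± 6.66 TPM. Eif2b4 averaged 78.1 ± 3.43 TPM and Eif2b1, a regulatory subunit, 71.4 ± 3.93 TPM. Eif2b3, the gamma subunit that partners epsilon, was lowest at 20.4 ± 1.59 TPM. Eif2b5 exceeded Eif2b3 by 7.69 ± 0.347-fold, and by 5.56-fold with the longest coding transcript.

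Eif5a, which helps ribosomes past stalling sequences and carries the unusual amino acid hypusine, ranked 3 among the members. It measured 2014, 2018, 1934 and 2018 TPM, with replicate 3 the lowest. Eif5a2 measured 15.01, 17.5, 13.8 and 14.9 TPM. Eif5a exceeded Eif5a2 by 131 ± 10.7-fold in TPM, by 217-fold with the longest coding transcript and by 62.03-fold in CPM. On the log2(TPM + 1) scale the difference was 6.94 ± 0.11, or 7.63 with the longest coding transcript.

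The eIF3 complex, which holds the small subunit and recruits mRNA, contributed 14 members with a median of 442 ± 40.5 TPM. Eif3h was the highest, at 954, 1161, 1113 and 1125 TPM, with replicate 1 below the other 3. Eif3d, the subunit that can itself bind the cap of some mRNAs, measured 644, 637, 692 and 684 TPM. Eif3c measured 595, 619.8, 619 and 639 TPM. Eif3f measured 540.1, 628, 651 and 609.6 TPM. The 3 genes differed little, and no library was lowest in all of them. Eif3b averaged 592 ± 7.38 TPM, Eif3l 572 ± 22.7 TPM, Eif3a 358 ± 17.2 TPM, Eif3i 314 ± 10.6 TPM, Eif3g 272 ± 18.02 TPM, Eif3k 244 ± 14.9 TPM and Eif3m 218 ± 18.4 TPM. Leaving out the loosely bound j subunit, the highest of the 12 subunit mRNAs exceeded the lowest by 5.00 ± 0.0779-fold (Eif3h over Eif3m). With the longest coding transcript the ratio was 3.01 ± 0.115-fold (Eif3h over Eif3a).

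The j subunit, which sits near the decoding site, was far below the rest. Eif3j1 measured 19.2, 18.3, 16.9 and 16.9 TPM. Eif3j2 measured 2.03, 2.29, 2.04 and 2.55 TPM. Of the sequence of Eif3j2, 87.4% of 75-base words also occurred in another gene, chiefly Eif3j1, and 37.7% of those of Eif3j1 did. Since multimapping reads were not counted, both levels and their difference of 2.54 ± 0.16 log2 units are uncertain.

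**Figure D3:**
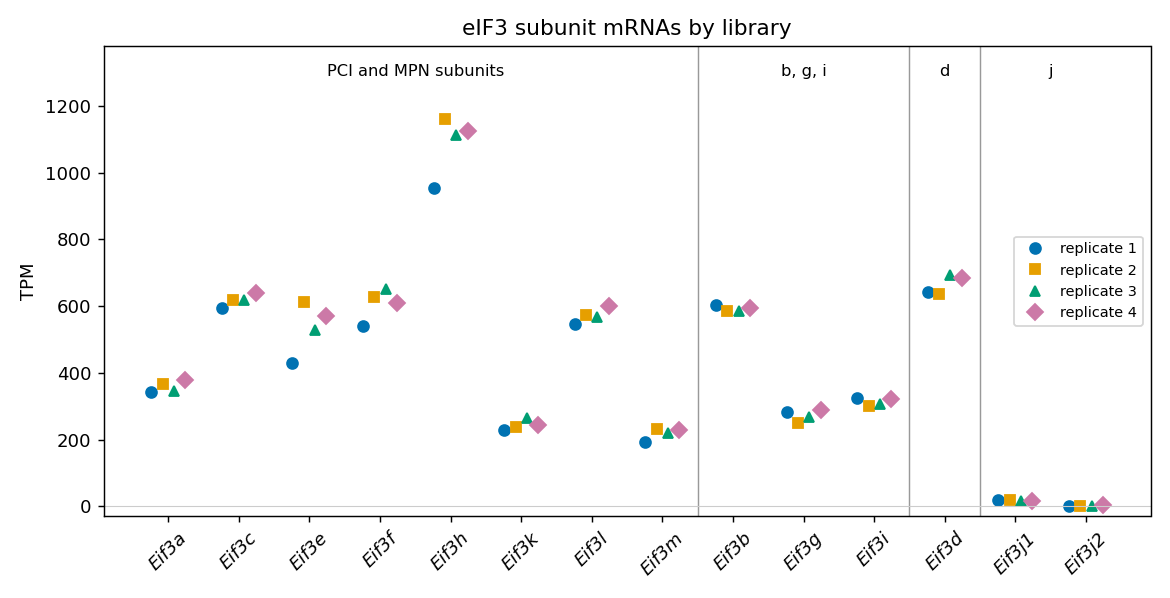
TPM of the 14 eIF3 genes with 1 symbol per library, grouped by structural module. In TPM, replicate 1 is the lowest library for all 8 PCI and MPN subunits, while Eif3b, Eif3g and Eif3i are lowest in replicate 2. In log2 CPM, replicate 1 is lowest for 4 of these 8 subunits and replicate 2 for 3. Eif3j1 and Eif3j2 lie near 0 on the TPM axis.

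In replicate 1 the deviations of the PCI and MPN octamer and of Eif3b, Eif3g and Eif3i differed in sign, without a test of that difference. All 8 members of the PCI and MPN octamer (Eif3a, Eif3c, Eif3e, Eif3f, Eif3h, Eif3k, Eif3l and Eif3m) were below their own mean there, by -0.27 to -0.02 in log2 CPM, against 49.4% of all 13478 genes tested. Eif3b, Eif3g and Eif3i, which form a module of their own, were above it, by 0.06 to 0.09, and all 3 were lowest in replicate 2. So were 3 of the 8 octamer genes, Eif3d, and 1640 of the 3848 genes tested at a mean of 50 TPM or more. The remaining subunits were mixed in sign: Eif3d deviated by -0.01 in replicate 1, Eif3j1 by 0.14 and Eif3j2 by -0.09. The signs were the same under TMM and RLE scaling and with library totals. None of the 14 genes was called by the edgeR test. Replicate 1 also had the highest Gm42418 and the highest Malat1, at 131 TPM against 42.5 to 55.2 TPM in the others, whose part in these shifts was not tested.

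Within eIF3, the widest range was that of Eif3e, an octamer subunit (ENSMUSG00000022336.2, chr15:43250040-43282736, minus strand, mm10). It measured 430.1, 613, 529 and 571 TPM. Replicate 1 was lowest and replicate 2 highest, a range of 0.43 in log2 CPM (edgeR goodness of fit, adjusted p = 0.755). Eif3s6-ps1, a pseudogene that bears an older symbol of Eif3e, had 7, 57, 49 and 30 counts in replicates 1 to 4, and was lowest in replicate 1 in TPM. Eif3s6-ps2, the pseudogene that shares the most 75-base words with Eif3e (7.26%), had 7, 11, 6 and 3 counts and was lowest in replicate 3 in TPM.

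The groups compared next kept the same order in each library. The median log2(TPM + 1) of eIF3 lay 2.46 ± 0.18 above that of eIF2B, eIF4F lay 1.12 ± 0.15 above it and the 4E-BP genes 0.90 ± 0.12 above it (SD, n = 4, higher in 4 of 4 libraries each). The eEF1B subunits lay 1.52 ± 0.07 above eIF3. The factor-modifying enzymes differed from eIF2B by -1.26 ± 0.20, lower in all 4 libraries. A mean in place of the median turned the 4E-BP difference to -0.79, with Eif4ebp3 at 1.62 TPM among its 3 genes. These are descriptions of chosen groups of genes and carry no test.

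No factor mRNA was called as varying between libraries, and few calls of any kind were made in the whole table. The edgeR goodness-of-fit test, which asks whether a gene varies more between the 4 libraries than genes of like abundance, called 0 of the 57 members tested at an adjusted p under 0.05 (background 0.378%, 51 of 13478 genes). At an unadjusted p under 0.05 it found 2 members, Eif4ebp1 and Eif3e, with 5.97% over all genes. The smallest adjusted p of a member was 0.72. In simulated counts the edgeR test missed most changes of 1.5-fold in a library, so 0 calls do not show that levels were equal. limma and the dispersion outliers of DESeq2 also gave 0 members, with 15 and 48 genes in all, and limma had 2 members at an unadjusted p under 0.05.

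The median member ranged over 0.17 in log2 CPM across the 4 libraries. Ribosomal protein genes ranged over 0.24 and aminoacyl-tRNA synthetase genes over 0.20. All genes tested had a median range of 0.31, and those at 50 TPM or more 0.20. Of the 57 members tested, 37 ranged less than the median gene of their level and 2 more than the 90th percentile. In all, 49 members ranged over less than 0.30, a limit that the median gene at 50 TPM or more also lay under, at 0.20. The share of all genes under it was not counted.

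**Figure D4:**
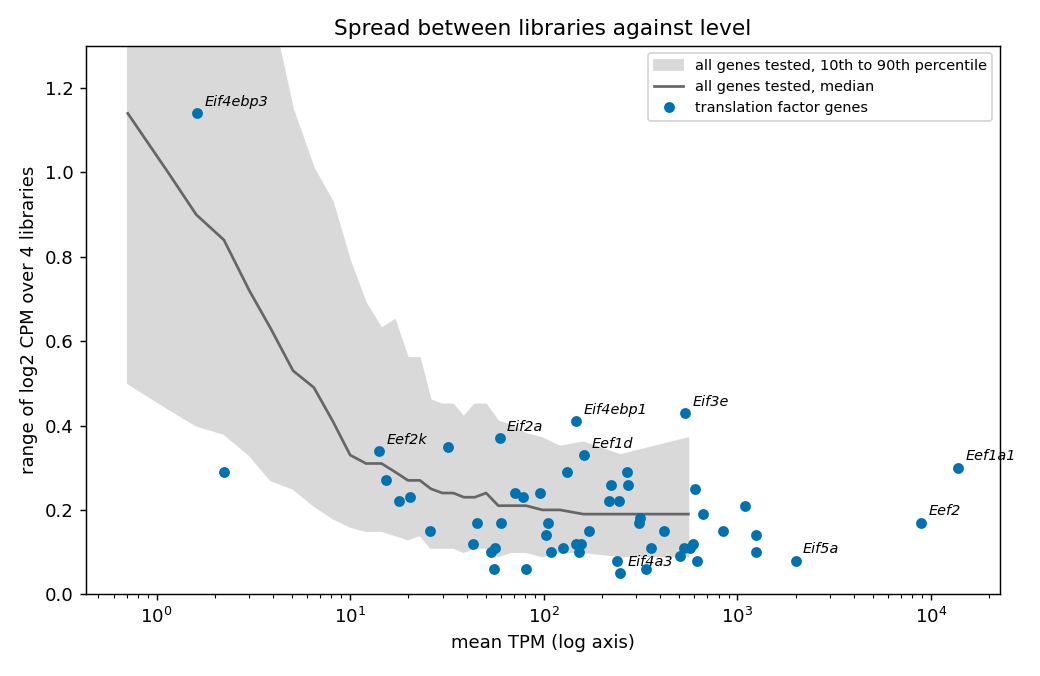
Range of log2 CPM over the 4 libraries against mean TPM (log axis) for the 57 tested factor genes (points), with the median (line) and the 10th to 90th percentile (grey) of all tested genes of like level. Most points lie under the line; Eif3e at 0.43 and Eif4ebp1 at 0.41 stand above the grey area.

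The 5 widest ranges among members at 5 TPM or more were those of Eif3e (0.43), Eif4ebp1 (0.41), Eif2a (0.37), Eef1akmt2 (0.35) and Eef2k (0.34). They did not share a direction: replicate 1 was lowest for Eif3e and Eif2a, replicate 2 for Eif4ebp1 and Eef2k, and replicate 3 for Eef1akmt2. By library, the median deviation of members was 0.01, -0.02, -0.01 and 0.03 in replicates 1 to 4, while that of ribosomal protein genes was -0.03, -0.13, 0.10 and 0.07. Replicate 2 was the lowest library for 23 of the 57 members tested (background 28.9%), replicate 3 for 16 (background 19.9%), replicate 1 for 14 (background 30.1%) and replicate 4 for 4 (background 21.1%). Among the 3848 genes tested at 50 TPM or more, replicate 2 was lowest for 1640 and replicate 1 for 1028. Replicate 3 was lowest for 606 of them and replicate 4 for 574.

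**Figure D5:**
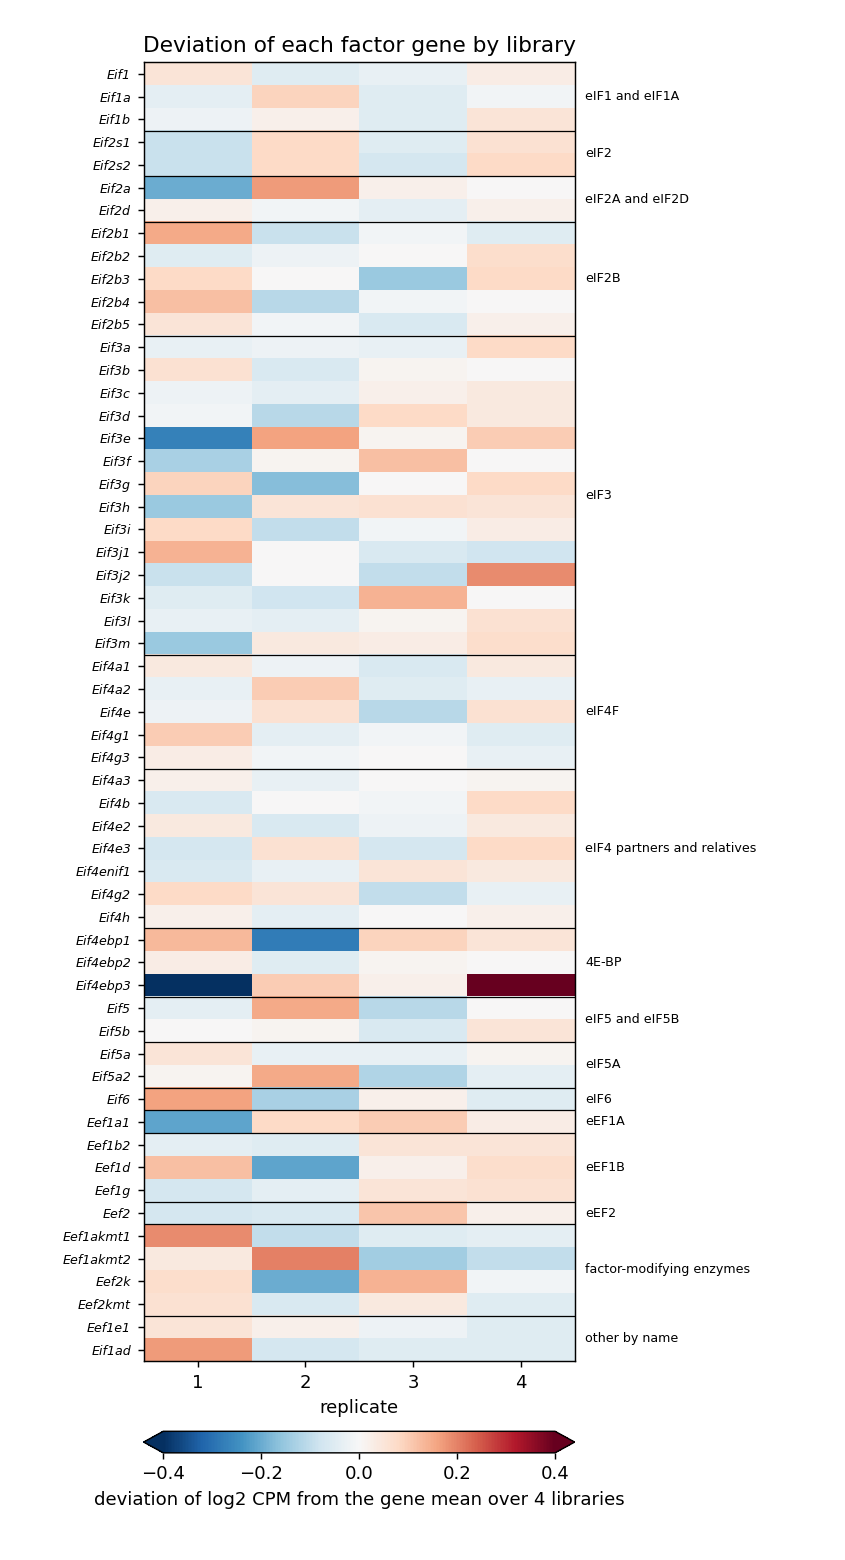
Deviation of log2 CPM from the mean of each gene in each library, for the 57 tested factor genes grouped by complex; blue is below and red above the mean, and the colours end at 0.4 on either side, which Eif4ebp3 exceeds. Replicate 1 is blue for Eif3e, Eif2a and Eef1a1, and replicate 2 is blue for Eif4ebp1, Eef1d and Eef2k.

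Other genes of translation control were taken from lists chosen by function. Of 54 such genes, 53 reached 1 TPM in every library, and of the 53 tested only Eif2s3x was called by edgeR (background 0.378%). The termination factor Etf1 averaged 296 ± 19.00 TPM, its partner GTPase Gspt1 220.2 ± 13.3 TPM and the recycling ATPase Abce1 137 ± 12.9 TPM. Pabpc1, the poly(A)-binding protein that joins the mRNA ends through eIF4G, averaged 1028 ± 56.5 TPM. The 4 kinases of eIF2 alpha lay close together: Eif2ak1 (HRI) averaged 36.1 ± 1.80 TPM, Eif2ak4 (GCN2) 26.7 ± 1.89 TPM, Eif2ak3 (PERK) 25.3 ± 1.71 TPM and Eif2ak2 (PKR) 20.99 ± 1.02 TPM. Ppp1r15b, a subunit of the phosphatase that reverses them, averaged 118 ± 5.70 TPM. Mknk2, a kinase of eIF4E, averaged 664 ± 54.1 TPM, and Mknk1, the other such kinase, 28.3 ± 3.32 TPM. Pdcd4, an inhibitor of eIF4A, averaged 268 ± 30.5 TPM. Dhps and Dohh, the enzymes that make hypusine on eIF5A, averaged 63.5 ± 5.74 TPM and 76.1 ± 7.89 TPM. The elongation factor of mitochondria, Tufm, averaged 159.5 ± 7.86 TPM.

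Levels between genes depend on the length used. TPM here divides by all exons of a gene, and 18 members have exons at least 1.5 times as long as their longest coding transcript. The exons are those of GENCODE M13 and the transcripts those of M21. With the transcript's length, Eif3i stood at 748 TPM in place of 314 and Eif3k at 524 in place of 244. Eif4a1 stood at 941 in place of 533 and Eif2a at 114 in place of 59.1. Eef1e1 stood at 44.2 in place of 151, but its M21 transcript has 2553 bases against 1032 bases of exon in the counts. That lower value thus divides the counts by bases outside the counted exons. Sequence shared with other genes lowers some levels too, because multimapping reads were left out. At least 10% of 75-base words were shared in 11 members, among them Eif4a1 (62.9%), Eef1g (56.5%) and Eef1a1 (41.7%), while 33 members shared none. CPM, which has no length correction, moved 11 of the 16 pair differences by more than 1.5-fold. Besides those given above, it gave 2.13 for Eif4a1 minus Eif4a3, 2.01 for Eif4e minus Eif4e3, 1.74 for Eif4g1 minus Eif4g3 and 3.08 for Eif1 minus Eif1b. It gave 3.65 for Eif3j1 minus Eif3j2, 1.73 for Eef1b2 minus Eef1d, 1.76 for Eef1g minus Eef1d, 5.89 for Eif5a minus Eif5a2 and 8.10 for Eef2 minus Eef2k. The log2 CPM used for differences between libraries involves no length.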

How the data were processed

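The authors deposited raw counts of read pairs per gene, made with featureCounts 1.4.6-p4 on GENCODE M13 exons, per the file headers: both ends mapped, reverse strand setting (2), multimapping reads not counted. The labels name the mm10 assembly. For aligner settings, the sources used here state nothing. TPM was computed here from those counts and the exon lengths of the files, CPM from library totals. Symbols came from GENCODE M21 (50376 of 50600 identifiers matched), coordinates of sequences from RefSeq on GRCm38.p6.

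Variation between libraries was tested in edgeR 4.0.16 (R 4.3.3) with filterByExpr (minimum count 10), TMM, an intercept-only design, trended dispersion and a goodness-of-fit test (one-sided), Benjamini-Hochberg adjusted over 13478 genes; limma 3.58.1 and DESeq2 1.42.0 were alternatives. Deviations used log2 CPM with a prior count of 2, and gene pairs log2(TPM + 1) tested by exact permutation of signs (two-sided). The edgeR test was tried on simulated counts for these genes, where it missed most changes of 1.5-fold in a library. The common coefficient of biological variation was 0.135. The 4 libraries are distinct: in any pair the chi-square per gene was 11.8 or more. A floor of 3 counts lay at 0.0652, 0.0416, 0.0316 and 0.0919 CPM in replicates 1 to 4.

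The members and all gene lists were chosen with earlier results of these data known. Per-library values were given by rule for called members, the 10 highest, those under 1 TPM with counts, the paired genes and the 5 widest ranges at 5 TPM or more. The length of the longest coding transcript was an alternative added after seeing the data. The protein-coding filter, pseudocount, scaling, filter on low counts and each replicate were varied as well.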

Additional observations from a re-analysis of the deposited data

Results flagged for a closer look

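In 8 of the 58 members with enough counts to examine, a single library lay far from the other 3 relative to the range of the gene. This is 13.8% of them, against 5.77% of 11987 autosomal protein-coding genes with counts in every library, a difference that was not tested. Chance gives about 1 in 20 such cases. Replicate 1 was apart in 4 of them. Eef1akmt1, an eEF1A methyltransferase, was highest there at 146 TPM, against 125 to 128 TPM in the others. Eif2b1, a regulatory subunit of eIF2B, was highest there at 77.3 TPM, against 69.01 to 69.97 TPM. Eif4enif1, the eIF4E transporter, was lowest there at 118 TPM, against 128 to 130.1 TPM. Eef1akmt3 was lowest there at 0.152 TPM, against 0.353 to 0.366 TPM, where few counts stand behind each value.

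Replicate 3 was apart in 3 genes. Eif5a was lowest there at 1934 TPM, against 2014 to 2018 TPM in the others. Eif2b5, the catalytic subunit of eIF2B, was lowest there at 148 TPM, against 158 to 160.1 TPM. Eif2b3, its partner subunit, was lowest there at 18.1 TPM, against 20.98 to 21.6 TPM. In replicate 2, Eif4ebp1 was lowest at 124 TPM, against 153 to 157 TPM. Eef1akmt3 had too few counts for the edgeR goodness-of-fit test. None of the other 7 genes was called by it after adjustment, and Eif4ebp1 alone had an unadjusted p under 0.05.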

How the results depend on the processing

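Over 27 results and 203 alternatives, 3 turned round and 16 further ones moved beyond the spread or count limit set for them; the gene pair contrasts were judged on direction alone. Of 128 alternatives to those contrasts, 126 kept their direction and 17 moved by more than 1.5-fold, 11 in CPM, 5 with the longest coding transcript, 1 with a pseudocount of 0.1 and 0 on leaving out a replicate; Eif4g2 minus Eif4g1 was 0.07 in CPM and Eif2s2 minus Eif2s1 was 0.07 with the longest coding transcript. The mean in place of the median gave -0.79 for the 4E-BP genes minus eIF2B, 1.71 for eIF3 minus eIF2B, 1.31 for eEF1B minus eIF3 and -1.91 for the modifying enzymes minus eIF2B. CPM gave 2.17 for eIF4F minus eIF2B, 0.66 for the 4E-BP genes and -0.97 for the modifying enzymes. The longest coding transcript gave 1.74 for eIF4F, 1.43 for eEF1B minus eIF3, 0.68 for the 4E-BP genes and -1.01 for the modifying enzymes. Members at 1 TPM or more in every library gave 1.25 for the 4E-BP genes and -1.05 for the modifying enzymes. The range of the members' median deviation over libraries was 0.05, and 0.02 to 0.05 with each replicate left out, lowest without replicate 4. Members held 3.65% of counts and 4.20% of TPM over protein-coding genes. A pyrimidine start within 3 bases gave 7 members. The causes were not tested.

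The count of members called by edgeR stayed at 0 under all settings run, while that of all genes was 51, 17 without replicate 1, 56 without replicate 2, 23 without replicate 3 and 33 without replicate 4. The number of members expressed was 55 to 57 over the alternatives, with 57 without replicate 1. No paired comparison of groups was possible because there is a single group. The limits of these data are 4 libraries of unstated origin beyond a shared donor record, and levels that rest on the exon length used.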
